A study of Mus musculus with 33 samples.

Results

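The change in gene expression 14 days after ovariectomy (OVX) was compared between 2 dissected parts of the mouse hypothalamus, the posterior hypothalamus (PH) and the preoptic area (POA). The measure was the difference between the differences, the 14-day change in the PH minus the 14-day change in the POA, taken on the log2 scale of the deposited values. Of the 33 bulk RNA-seq libraries of the series, 21 enter this comparison, 10 from the PH and 11 from the POA. The mice were adult wild-type C57BL/6 females, and OVX removed both ovaries. The PH set holds 4 libraries of intact mice and 6 of mice euthanized 14 days after OVX, and the POA set holds 5 and 6. The intact mice were euthanized in diestrus without surgery according to the methods. Control libraries are titled sham, but a further label and the methods call them intact, which is the name used here. One POA library of the 14-day group carries only the number 14 as its condition label, and its time was taken from its title. The libraries fall into 2 batches that coincide with the prefix of their library names, called the labeled batches here. The methods do not mention batches. In the PH each batch holds 2 intact and 3 14-day libraries. In the POA batch 1 holds 2 and 3, and batch 2 holds 3 and 3. The methods describe collection of both regions from the females, but the labels do not tell which libraries share a mouse, so every library was treated as a separate sample, and *P* values measure the spread between these libraries.

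Ovarian estradiol acts on the hypothalamus in opposite ways at separate sites. Kisspeptin neurons of the arcuate nucleus, which lies in the PH, are restrained by estradiol and take part in its negative feedback on gonadotropin-releasing hormone (GnRH), whereas kisspeptin neurons at the rostral border of the third ventricle, next to the POA, are stimulated by it and serve the preovulatory surge. Arcuate kisspeptin neurons also make neurokinin B (from *Tac2*) and dynorphin (from *Pdyn*), and are called KNDy neurons for these peptides. Many other responses to ovarian steroids, or to the surgery and the time that follow it, need not differ by site, so the question was which genes and gene families changed alike in the PH and the POA and which changed in opposite directions.

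The deposited values are normalized signal on a linear scale, not counts. Unexpressed genes sit on a floor of 22.1 rather than at 0, so fold changes of weak genes come out smaller than they would for counts, and sequencing depth is unknown. The values of 108 floor genes follow 1 common component, 83.5% of which lies between the regions, and levels of the PH and the POA were therefore not compared with each other. Each gene was fitted with limma across all 33 libraries, with 1 surrogate variable (SV1) for each region, and the threshold for a call was an adjusted *P* of 0.05. Of 22132 genes that passed the filter on low values, 16163 were protein coding. Neuronal genes such as *Snap25* and *Syt1* were far above the floor in all 21 libraries. The arcuate peptide gene *Agrp* was at 53.9 to 126 in the PH, above 2 times the floor in 10 of 10 libraries, and *Gnrh1* was at 68.2 to 182 in the POA, above it in 11 of 11. Each was also above 2 times the floor in every library of the other region, so these genes do not mark 1 region alone. One library stood apart in its total: the values of PH 14-day replicate 5 added up to 1.45 times the median sum, against 0.887 to 1.09 times in the other 20. Replicate 6 of the 14-day group stood apart in both regions in interferon-stimulated and MHC class I genes. Counts that move with these libraries are also given without them.

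*Gm28040* was the only gene called for a difference between the regions. It is an annotated readthrough gene that spans *Golt1a* and the locus of *Kiss1*, the gene of the kisspeptin precursor, on chromosome 1. In the PH, *Gm28040* was at 40.8, 39.3, 38.3 and 37.1 in the 4 intact libraries and between 65.6 and 168 (median 101) in the 6 libraries of the 14-day group. In the POA it was at 115, 88.1, 171, 191 and 146 in the 5 intact libraries and between 45.3 and 79.1 (median 53.7) 14 days after OVX. Every PH library was higher after OVX than any intact one, and every POA library was lower, so the groups did not overlap in either region. *Gm28040* reached 2 times the floor in 0 of 4 intact and 6 of 6 14-day PH libraries, and in 5 of 5 and 6 of 6 POA libraries. The size of its PH fold therefore rests on intact values near the floor. Among the 16163 protein-coding genes tested, 44 (0.272%) had all 14-day libraries above the intact ones in the PH and 26 (0.161%) had all below in the POA, and *Gm28040* was the only gene apart in both regions, in any combination of directions. In bulk tissue, more or fewer cells that express a gene and more or less RNA per cell cannot be told apart, which holds for all values given here.

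The fitted log2 change of *Gm28040* was 1.53 (SE 0.23) in the PH, a 2.89-fold rise (adjusted *P* = 0.00348, limma), and −1.20 (SE 0.21) in the POA, 2.30-fold lower (adjusted *P* = 0.0584, limma). The difference between the regions was 2.73 (SE 0.31) on the log2 scale, with an adjusted *P* of 1.15e-05. This was 1 call, or 0.00619% of the protein-coding genes tested. The POA change on its own missed the threshold. Without any model, the mean log2 values differed by 1.39 for the PH and −1.27 for the POA. Labels were then exchanged within each region, with the difference between the 2 changes as the statistic. This two-sided exact permutation test gave *P* = 1.03e-05, the smallest *P* that such exchanges can give. Its null is no change in either region, so it does not test whether the 2 changes were equal. When labels were exchanged only within the labeled batches, the exact *P* was 5e-05, again the smallest possible. The difference was 2.35 in batch 1 alone (adjusted *P* = 0.0410) and 2.83 in batch 2 alone (adjusted *P* = 0.933), so the direction was the same in both, although batch 2 alone did not pass the threshold. It was 2.74 without PH 14-day replicate 5 and 2.65 without 14-day replicate 6 of both regions. The PH call, in contrast, depended on the settings. It was lost without 14-day replicate 6 of both regions (log2 change 1.40, adjusted *P* = 0.0548), without a covariate (1.39, adjusted *P* = 0.163), with the labeled batch in place of SV1 (1.39, adjusted *P* = 0.0667) and in either batch alone.

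The table names genes by symbol and holds 2 entries named *Gm28040*, of which the one described here was the only one to pass the filter. The other lay between 20.9 and 49.4 in all 21 libraries. The entry named *Kiss1* itself was near the floor, between 22.1 and 31.0 in the PH and between 21.9 and 43.4 in the POA, and reached 2 times the floor in 1 of 33 libraries. The genes overlap, and reads from shared exons cannot be told apart by their sequence, so the *Gm28040* values may hold reads of both, and which of the 2 genes produced the RNA was not tested. In GENCODE M39 (GRCm39), both genes named *Gm28040* lie on the forward strand, at chr1:133237565-133257465 and chr1:133237565-133257639, and *Golt1a* lies at chr1:133237538-133250764. Which of them each entry stands for cannot be told from the symbol. The coding sequence of one of them consists of 2 exons, printed here because both these exons and the *Kiss1* gene lie in the locus of the only called entry. The capitals mark the start codon in the first exon (chr1:133254988-133255078) and the stop codon in the second (chr1:133257094-133257383).
Gm28040 coding exon 1: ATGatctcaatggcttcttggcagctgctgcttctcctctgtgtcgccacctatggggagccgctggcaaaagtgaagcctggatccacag
Gm28040 coding exon 2: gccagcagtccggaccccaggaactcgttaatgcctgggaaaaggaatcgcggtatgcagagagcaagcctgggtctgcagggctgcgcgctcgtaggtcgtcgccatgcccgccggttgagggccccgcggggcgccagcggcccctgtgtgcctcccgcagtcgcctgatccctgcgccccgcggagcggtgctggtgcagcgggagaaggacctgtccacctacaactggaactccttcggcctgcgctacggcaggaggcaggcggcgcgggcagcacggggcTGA
Together they hold 381 bases with the stop codon. The promoter of *Kiss1* in the RefSeq table (GRCm38.p6, chr1:133326962-133327211, forward strand, 250 bases before the start site) matched GRCm39 once, at chr1:133254700-133254949, so the *Kiss1* start site lies 38 bases before the start codon of the first exon shown and inside *Gm28040*. Capitals mark the letters GGTCA or their reverse complement TGACC, an estrogen response element half-site, which was searched on both strands.
Kiss1 promoter: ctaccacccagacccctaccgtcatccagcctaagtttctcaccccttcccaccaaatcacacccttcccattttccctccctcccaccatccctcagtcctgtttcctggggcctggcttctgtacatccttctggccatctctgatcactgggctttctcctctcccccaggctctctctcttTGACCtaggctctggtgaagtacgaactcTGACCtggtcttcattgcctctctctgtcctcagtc
The *Kiss1* promoter held 2 such matches. Of the 32851 promoters of the table, 35.2% held at least 1 match in the same length and 8.2% held 2 or more, so the match is a description and not a site. The promoter of *Tac2* (GRCm38.p6, chr10:127724228-127724477, forward strand), the neuropeptide gene that came closest to *Gm28040* in its pattern, is shown in the same way and held 0 matches.
Tac2 promoter: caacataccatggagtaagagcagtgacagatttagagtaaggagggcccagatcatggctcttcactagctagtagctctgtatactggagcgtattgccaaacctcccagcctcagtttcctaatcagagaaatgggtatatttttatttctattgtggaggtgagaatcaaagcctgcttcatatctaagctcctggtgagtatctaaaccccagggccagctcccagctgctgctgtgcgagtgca

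**Figure D1:**
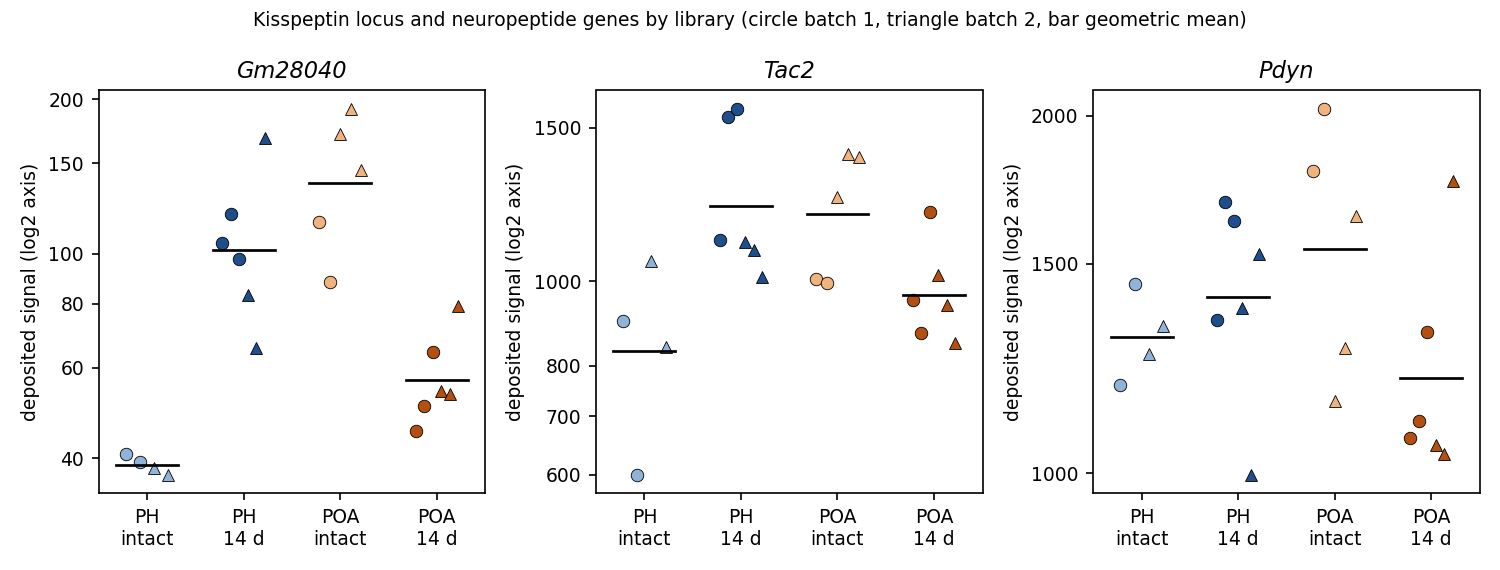
Deposited signal (log2 axis) of *Gm28040*, *Tac2* and *Pdyn* in each library of the 4 groups. Circles are batch 1, triangles batch 2, and bars geometric means. For *Gm28040* the 6 PH 14-day libraries (65.6 to 168) lie above the 4 intact ones, and the 6 POA 14-day libraries (45.3 to 79.1) lie below the 5 intact ones, whereas the groups of *Tac2* and *Pdyn* overlap.

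*Tac2*, which encodes neurokinin B, had the third smallest *P* for the difference between the regions among protein-coding genes. In the PH it was at 902, 599.7, 1054 and 839.7 in intact libraries and at 1011 to 1578 (median 1111) after OVX. In the POA it was at 1006, 995, 1251, 1400.0 and 1387 in intact libraries and at 849.5 to 1200.0 (median 946) after OVX. In each region the groups overlapped, by a single intact library in the PH. The fitted log2 change was 0.58 (SE 0.16) in the PH and −0.29 (SE 0.15) in the POA, a difference of 0.87 (SE 0.22), which did not pass the threshold over all genes (adjusted *P* = 0.999, unadjusted *P* = 0.000483). With the difference as the statistic, the two-sided exact permutation *P* was 0.00105 over all libraries and 0.00135 within batches. The null was again no change in either region, so equal change was not tested by it. The 2 batches shared this difference unequally: in batch 1 the PH was higher by 0.92 and the POA differed by −0.00, whereas in batch 2 the PH was higher by 0.18 and the POA lower by 0.53. *Pdyn*, the dynorphin precursor, had the same signs, 0.21 (SE 0.22) in the PH and −0.37 (SE 0.21) in the POA, with an adjusted *P* of 0.999 for the difference.

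Among the 13 tested genes (of 15 listed) of the kisspeptin and GnRH system, 7 were higher in the PH and lower in the POA, 1 showed the reverse, 4 were higher in both and 1 was lower in both. Over all protein-coding genes these shares were 25.7% (higher in the PH and lower in the POA), 19.3% (the reverse), 24.8% (higher in both) and 30.2% (lower in both). The 7 genes include *Gm28040* itself, so their number is not separate from its call. In batch 1 alone 4 of the 13 were higher in the PH and lower in the POA and 6 were higher in both. In batch 2 alone these counts were 6 and 2. *Gnrh1*, the gene of GnRH itself, had log2 changes of 0.05 (SE 0.37) in the PH and 0.35 (SE 0.34) in the POA. *Tacr3*, the neurokinin B receptor, had log2 changes of 0.05 (SE 0.11) and −0.03 (SE 0.10), and neither gene differed between the regions beyond its error. Of the receptors for ovarian steroids, *Esr1* (estrogen receptor α) had log2 changes of 0.39 (SE 0.21) for the PH and 0.11 (SE 0.19) for the POA, and *Pgr*, the progesterone receptor and an estrogen target, of −0.09 (SE 0.08) and −0.16 (SE 0.07). The value of *Esr1* turned on single libraries: it was lowest in POA 14-day replicate 6, and the difference of 0.28 became 0.02 without that library and 0.07 without 14-day replicate 6 of both regions. *Greb1*, another estrogen target, was at −0.08 (SE 0.26) and −0.05 (SE 0.24), a difference within its error.

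Of 14 sex steroid receptors and their cofactors, 4 were higher in both regions, 3 lower in both, 4 higher in the PH and lower in the POA and 3 the reverse.

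In 5 other lists of genes of hypothalamic neurons, more members were higher in the PH and lower in the POA than showed any other combination of signs, and no member was called. Of 30 estrogen-sensitive hypothalamic genes, 14 were higher in the PH and lower in the POA, and the medians were 0.10 and −0.03. Of these 30, 3 had an unadjusted *P* under 0.05 for a difference with the PH on top, beside 1.52% of all genes. *Gpr83*, a receptor coupled to G proteins, was at 0.15 for the PH and −0.27 for the POA. *Cartpt*, the precursor of the CART peptides, was at 0.31 and −0.37, and its intact and 14-day libraries overlapped in both regions. *Nmbr*, the receptor of neuromedin B, went the other way, with −0.18 and 0.36. The third member with the PH on top was *Nrip1*, a corepressor of nuclear receptors (0.04 and −0.18). Without 14-day replicate 6 of both regions, 9 of the 30 genes were higher in the PH and lower in the POA and 14 were higher in both. Of 15 preoptic neuron genes tested (of 16 listed), 7 were higher in the PH and lower in the POA, with medians of 0.11 and −0.02, and of 17 magnocellular and releasing hormone genes also 7, with medians of 0.06 and −0.07. Without 14-day replicate 6 of both regions these counts were 7 and 3.

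For the 12 dopamine neuron genes, 7 were higher in the PH and lower in the POA and 0 the reverse, with medians of 0.10 and −0.11, and without 14-day replicate 6 of both regions these counts were 8 and 0. *Drd2*, the dopamine D2 receptor, was at 0.11 and −0.28, and *Ddc*, which makes dopamine from L-DOPA, at 0.17 and −0.09, and neither difference passed even the unadjusted threshold. In batch 2 alone the median of the dopamine genes was −0.05 in the PH and −0.04 in the POA, whereas it was 0.26 and −0.15 in batch 1 alone. Of 20 arcuate feeding and growth hormone genes, 10 were higher in the PH and lower in the POA (medians 0.09 and −0.05). The 2 hunger peptides of the arcuate nucleus did not share that direction: *Agrp* was at −0.57 for the PH and −0.07 for the POA, and *Npy* at −0.37 and −0.14. In the PH, *Agrp* was at 86.6 to 126 in intact libraries and 53.9 to 83.0 after OVX, without overlap, whereas in the POA its groups overlapped. Of all protein-coding genes tested, 40 (0.247%) had every 14-day PH library below the intact ones.

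Genes were set down as opposite where the unadjusted *P* was under 0.05 in each region and the signs differed, and as alike where the signs were the same. These *P* values chose the genes, so the values that follow are a description. By this rule, 2 protein-coding genes (0.0124%) were higher in the PH and lower in the POA, 4 (0.0247%) were lower in the PH and higher in the POA, 26 (0.161%) were higher in both regions and 19 (0.118%) were lower in both. None but *Gm28040* had an adjusted *P* under 0.05 in either region or for the difference. The difference had an unadjusted *P* under 0.05 in 440 genes (2.72%), with the PH on top in 1.52% and the POA on top in 1.2%. The mean change of both regions had one in 962 (5.95%), higher in 2.99% and lower in 2.96%. Taken singly, 4.19% of genes passed this unadjusted threshold in the PH and 4.44% in the POA, whereas no gene was called for the mean change of both regions (limma, smallest adjusted *P* = 0.188). Across all protein-coding genes the log2 changes of the regions correlated weakly (Pearson r = 0.168 over 16163 genes, which are not independent replicates), and 55.0% had the same sign. The median absolute log2 change was 0.0731 in the PH and 0.0683 in the POA, smaller than the median SE of 0.110 and 0.101.

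**Figure D2:**
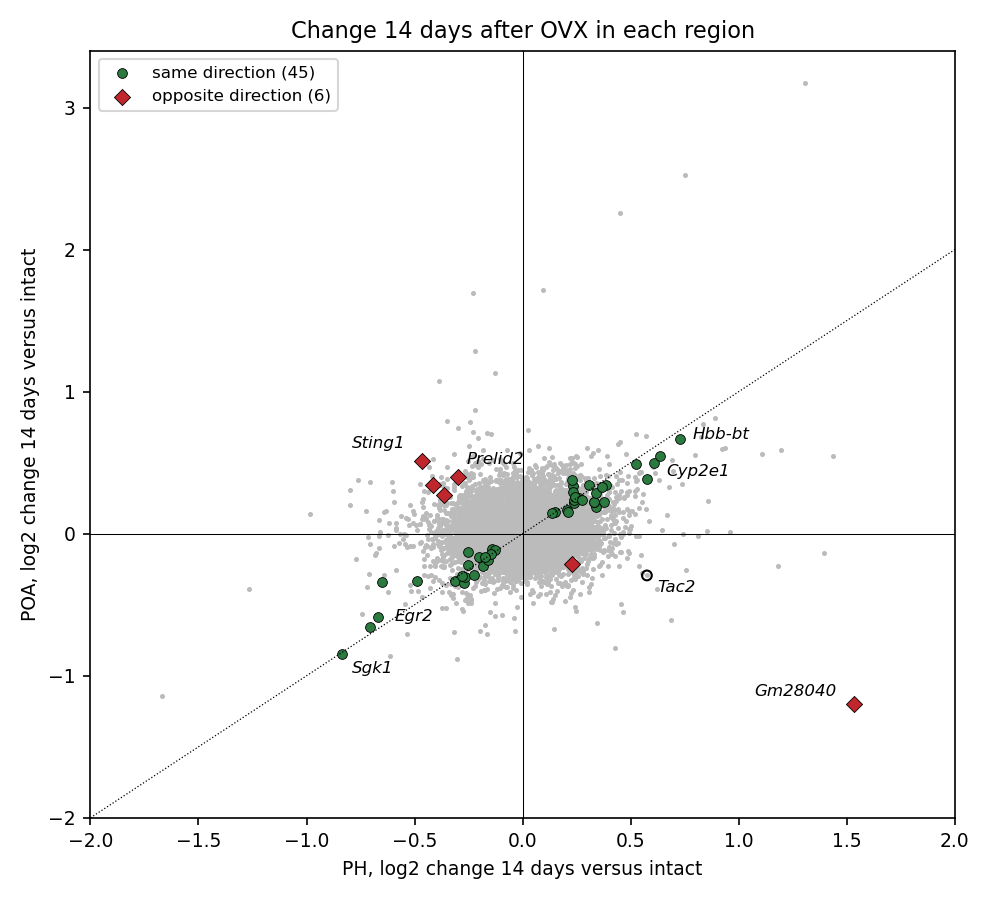
Log2 change 14 days after OVX in the PH (horizontal axis) and in the POA (vertical axis) for 16163 protein-coding genes (gray). Green circles are the 45 genes with an unadjusted *P* under 0.05 in each region and the same sign, red diamonds the 6 with opposite signs, and the open circle *Tac2*. The dotted line marks equal change. *Gm28040* lies alone at 1.53 and −1.20.

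The genes opposite in the regions other than *Gm28040* had smaller changes. *Sting1*, an adaptor of the innate response to cytosolic DNA, was at 187, 176, 147 and 227 in intact PH libraries and 89.5 to 185 (median 131) after OVX. POA values were 138, 109, 137, 168 and 126 in intact libraries and 164 to 233 (median 182) after OVX. Only the highest intact POA library reached into the range of the 14-day group, whereas in the PH the groups overlapped broadly. The log2 changes were −0.46 (SE 0.21) and 0.52 (SE 0.19), and the difference was −0.98 (SE 0.28, adjusted *P* = 0.999). *Prelid2* was at 35.8 to 52.7 in intact and 31.8 to 41.2 in 14-day PH libraries, and at 33.7 to 39.5 and 45.5 to 57.3 in the POA, where the groups did not overlap. In the POA, 25 protein-coding genes (0.155%) had every 14-day library above the intact ones. The difference of *Prelid2* was −0.70 (SE 0.18, unadjusted *P* = 0.000387, adjusted *P* = 0.999). The gene was weak: 2 times the floor was reached in 3 of 4 intact and 0 of 6 14-day PH libraries and in 0 of 5 intact and 6 of 6 14-day POA libraries, so the lack of overlap lies close to the floor.

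*Gm5127* (−0.41 for the PH and 0.34 for the POA) and *Or7g28*, an olfactory receptor gene (−0.37 and 0.27), completed the 4 genes that were lower in the PH and higher in the POA. Both were at no more than 74.8 in any library, so they were weak. *Gm5127* reached 2 times the floor in 3 of 4 intact and 0 of 6 14-day PH libraries. In the POA it did so in 0 of 5 intact and 2 of 6 14-day libraries. It passed the filter mostly through the intact PH group, so the filter favored its lower PH value, which is no support for an opposite change. *Hipk4*, a protein kinase gene, was higher in the PH (0.23, SE 0.10) and lower in the POA (−0.21, SE 0.09). Within batches its PH change was 0.32 in batch 1 and −0.30 in batch 2. Its lowest PH value, 518, was that of PH 14-day replicate 5, and the next lowest value of the group was 928. Without that library the rule gave 8 opposite genes, which included all 6. Without 14-day replicate 6 of both regions it gave 4, of which 1 was among the 6.

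Further genes with a small *P* for the difference had most of it in 1 region. *Ltbp2*, which encodes a protein of the extracellular matrix, was lower in the PH (−0.73, SE 0.18) and at 0.16 (SE 0.16) in the POA. *Xrra1* was lower in the PH (−0.52, SE 0.15), with every 14-day library (72.8 to 98.4) below the intact ones (104 to 137), and at 0.20 (SE 0.14) in the POA. Such a separation was found in 0.247% of protein-coding genes in the PH. *Lrriq1* was higher in the POA (0.79, SE 0.19) and at −0.24 (SE 0.21) in the PH. *Ccl3*, a chemokine of microglia and macrophages, was lower in the POA (−0.55, SE 0.16) and at 0.25 (SE 0.17) in the PH, and *Ephb1*, a receptor for ephrin-B ligands, was lower in the POA (−0.23, SE 0.07) and at 0.14 (SE 0.08) in the PH. For these 5 genes the unadjusted *P* of the difference lay between 0.000970 and 0.00188, and the adjusted *P* was 0.999. *Ccl3* lay close to the floor. It reached 2 times the floor in 0 of 4 intact and 3 of 6 14-day PH libraries, and in 5 of 5 and 2 of 6 POA libraries. *Ltbp2* did so in 4 of 6 14-day PH libraries. Across the alternatives other than leaving out 1 library, the difference ran from 0.24 to 1.02 for *Ccl3* and from −1.11 to −0.35 for *Ltbp2*.

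*Sgk1*, a kinase gene induced by glucocorticoids and mineralocorticoids, had the most negative mean change among the 45 genes alike in both regions. It was at 3980.2, 2287, 2867 and 4625 in intact PH libraries and at 1469.9 to 2273 (median 1855) after OVX, so that all 6 were below the lowest intact value. This held for 0.247% of protein-coding genes in the PH. Values in the POA were 3395, 1921, 2167, 4524 and 4696 in intact libraries and 1259 to 2262 (median 1679.9) after OVX, with overlap. The log2 changes were −0.84 (SE 0.29) and −0.85 (SE 0.26), a difference of 0.01 (SE 0.39), and the adjusted *P* of the mean change was 0.243. The spread among intact libraries was wide in both regions.

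Genes of myelin were also among those lower in both. *Cldn11*, the claudin of the myelin sheath, was at 8614, 6694, 7929 and 7817 in intact PH libraries and 5857 to 7196 (median 6557) after OVX. The POA libraries were at 7646, 6804, 7503, 7377 and 10033, and then at 5268 to 7181 (median 6397). A single intact library in each region reached into the 14-day range. The log2 changes were −0.27 (SE 0.10) and −0.31 (SE 0.09), and those of *Mog*, a surface protein of myelin, were −0.23 (SE 0.10) and −0.29 (SE 0.09). *Tfrc*, the transferrin receptor through which cells take up iron, was at −0.31 (SE 0.10) and −0.34 (SE 0.09), and *Arl5b*, a small GTPase gene, at −0.27 (SE 0.10) and −0.35 (SE 0.09). The PH change of *Arl5b* was −0.34 in batch 1 and 0.11 in batch 2, where PH 14-day replicate 5 stood at 2484 and the next highest library of its group at 1388. The adjusted *P* of the mean change lay between 0.188 and 0.423 for these 4 genes.

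Among the genes higher in both regions, *Pcdhga6* had the smallest *P* of the mean change. This clustered protocadherin, one of the cell surface proteins by which neurons tell themselves from others, was at 1128, 1214, 1548 and 1334 in intact PH libraries and at 1002 to 1845 (median 1631) after OVX. The POA libraries were at 1422, 1296, 1732, 1350.3 and 1496, and then at 1482 to 1793 (median 1694). The lowest value after OVX in the PH, 1002, belonged to replicate 5, and the next was 1529. The fitted log2 changes were 0.38 (SE 0.08) and 0.22 (SE 0.08). *Pcdhb14* had log2 changes of 0.34 (SE 0.08) and 0.19 (SE 0.07), and its groups did not overlap in the PH. *Zc3hav1*, which encodes an antiviral RNA-binding protein, had log2 changes of 0.23 (SE 0.09) and 0.34 (SE 0.08), and *Bag3*, a cochaperone of Hsp70, of 0.33 (SE 0.09) and 0.22 (SE 0.09). The adjusted *P* of the mean change was 0.188 to 0.239 for these 4 genes.

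**Figure D3:**
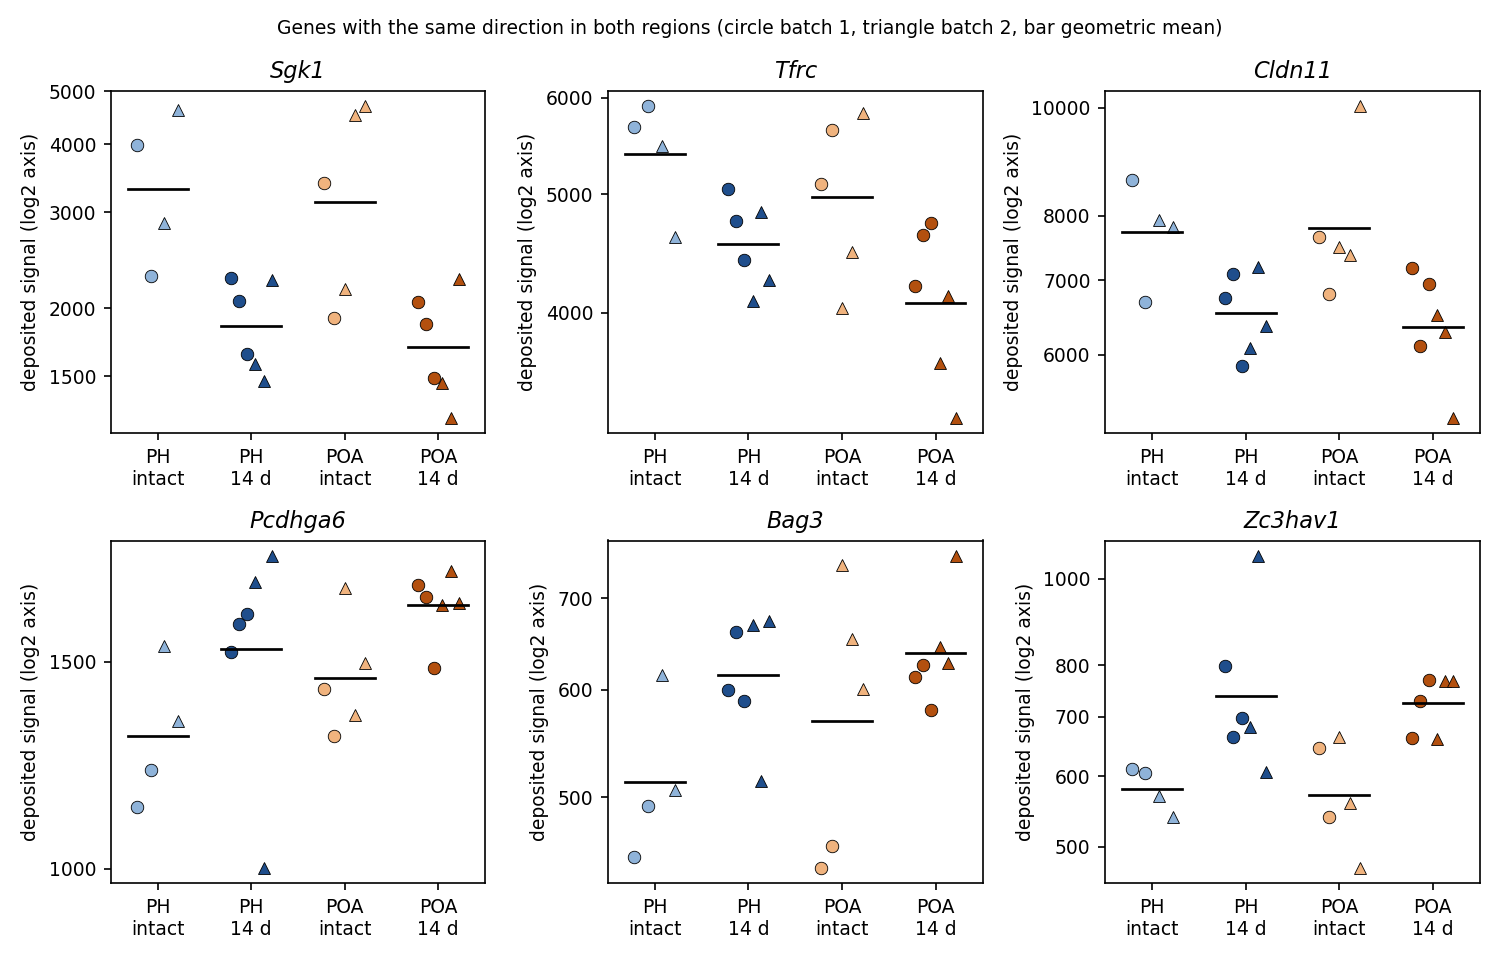
Deposited signal (log2 axis) of 6 genes with the same direction in both regions, by library. Circles are batch 1, triangles batch 2, and bars geometric means. *Sgk1*, *Tfrc* and *Cldn11* are lower and *Pcdhga6*, *Bag3* and *Zc3hav1* higher after OVX in both regions, with overlap between groups in at least 1 region for each gene.

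The largest positive mean changes among the 45 genes were those of hemoglobin and of a cytochrome P450 gene. *Hbb-bt*, a hemoglobin β chain, had log2 changes of 0.73 (SE 0.31) for the PH and 0.67 (SE 0.29) for the POA, and *Hbb-bs* of 0.63 and 0.55. *Cyp2e1* had log2 changes of 0.61 (SE 0.20) and 0.50 (SE 0.18), at values of 33.4 to 107 in all 21 libraries. Other members with smaller changes were *Ctss*, a lysosomal protease of microglia (0.25 and 0.24), *Psmb9*, a subunit of the immunoproteasome (0.52 and 0.49), *H2-D1*, an MHC class I gene (0.27 and 0.24), and *Tlr3*, a sensor of double-stranded RNA (0.24 and 0.26). On the lower side were *Egr2*, an immediate early gene (−0.67 and −0.58), *Cd3g*, a T cell receptor subunit (−0.65 and −0.34), and *Spred3*, an inhibitor of MAPK signaling (−0.16 and −0.19).

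The set of genes alike in both regions depended on which libraries were included. Without PH 14-day replicate 5 it had 58 members, which included 42 of the 45, and without 14-day replicate 6 of both regions it had 38, which included 21. In batch 1 alone, the same rule gave 38 genes, 5 of them among the 45, and in batch 2 alone 25 genes, 4 of them among the 45. Both batches are part of the data that chose the 45. The opposite genes numbered 11 in batch 1 and 8 in batch 2, with 2 and 1 of the 6.

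Gene families were compared by the medians of their members, beside the medians over all protein-coding genes, 0.00 for the PH and −0.01 for the POA. Several families had the same direction in both regions, and not every list that was computed is described. Of 94 cytosolic ribosomal protein genes, for instance, 59 were higher in both and 7 lower in both. Of 13 mitochondrially encoded genes, 8 were lower in both and 1 higher in both. Of 16 ependymal and tanycyte genes, 9 were lower in the PH and higher in the POA and 3 the reverse. Of 44 interferon-stimulated genes tested (of 45 listed), 40 were higher in both, with medians of 0.21 for the PH and 0.26 for the POA, and of 18 MHC class I and antigen-processing genes 14 were higher in both, with medians of 0.27 and 0.25. *Trim30a*, an interferon-induced gene, had log2 changes of 0.35 and 0.59, *Rsad2*, the antiviral enzyme viperin, of 0.46 and 0.38, and *B2m*, the light chain of MHC class I, of 0.34 and 0.19. The mean change of both regions had an unadjusted *P* under 0.05 in 11 of the 44 interferon-stimulated genes and 9 of the 18 MHC class I genes, all on the higher side (2.99% of all genes), and no member was called.

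In both families, 1 replicate number stood far above the others. The mean log2 deviation of the interferon-stimulated genes was 0.73 in PH 14-day replicate 6, against −0.15 to 0.13 in the other 5, and 0.75 in POA 14-day replicate 6, against −0.23 to 0.32 in the other 5. It was −0.24 to −0.02 in intact PH libraries and −0.31 to 0.32 in intact POA libraries, of which replicate 3 was the highest. The MHC class I mean was 0.92 in PH replicate 6 and 0.94 in POA replicate 6, against at most −0.01 and 0.22 in the other 14-day libraries. Without replicate 6 of both regions, the medians of the interferon-stimulated genes were 0.09 and 0.15 with 31 of 44 higher in both, and 2 of 44 had an unadjusted *P* under 0.05. The medians of the MHC class I genes were then 0.11 and 0.14, with 13 of 18 higher in both and 1 under that *P*.

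Homeostatic microglia and complement genes also lay on the higher side in both regions, whereas activated microglia genes had medians close to 0. Of 18 homeostatic microglia genes, 17 were higher in both regions, with medians of 0.10 and 0.12, and 16 were so without replicate 6 of both regions. Higher in both were 11 of the 18 in batch 1 alone (medians 0.05 and 0.12), 13 in batch 2 alone, 12 without a covariate and 13 with batch in place of SV1. Of 18 activated microglia genes tested (of 19 listed), 9 were higher in both and 4 lower in both, with medians of 0.04 and 0.03, and in batch 1 alone 4 were higher and 5 lower in both. *Itgam*, the CD11b chain of complement receptor 3, had log2 changes of 0.27 in the PH and 0.13 in the POA, *Aif1*, which encodes IBA1, of 0.42 and 0.21, and *Trem2*, a lipid receptor of microglia, of 0.26 and 0.15. The 1 gene of the homeostatic list that was lower in both was *Fcrls*, a microglial Fc receptor-like gene (−0.27 and −0.29). The mean of the homeostatic list lay between 0.01 and 0.16 in POA 14-day libraries and between −0.09 and 0.04 in intact ones. In the PH it lay between −0.16 and 0.14 in 14-day libraries and between −0.10 and −0.04 in intact ones. The groups overlapped in both regions. Of 22 complement genes tested (of 24 listed), 14 were higher in both and 0 lower in both, with medians of 0.12 and 0.18, and without replicate 6 of both regions 12 were higher in both. *C4b*, a component of the classical pathway, had log2 changes of 0.24 and 0.49, and *C1qa* of 0.15 and 0.20. *Cfp*, which encodes properdin, was at −0.32 for the PH and 0.22 for the POA.

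**Figure D4:**
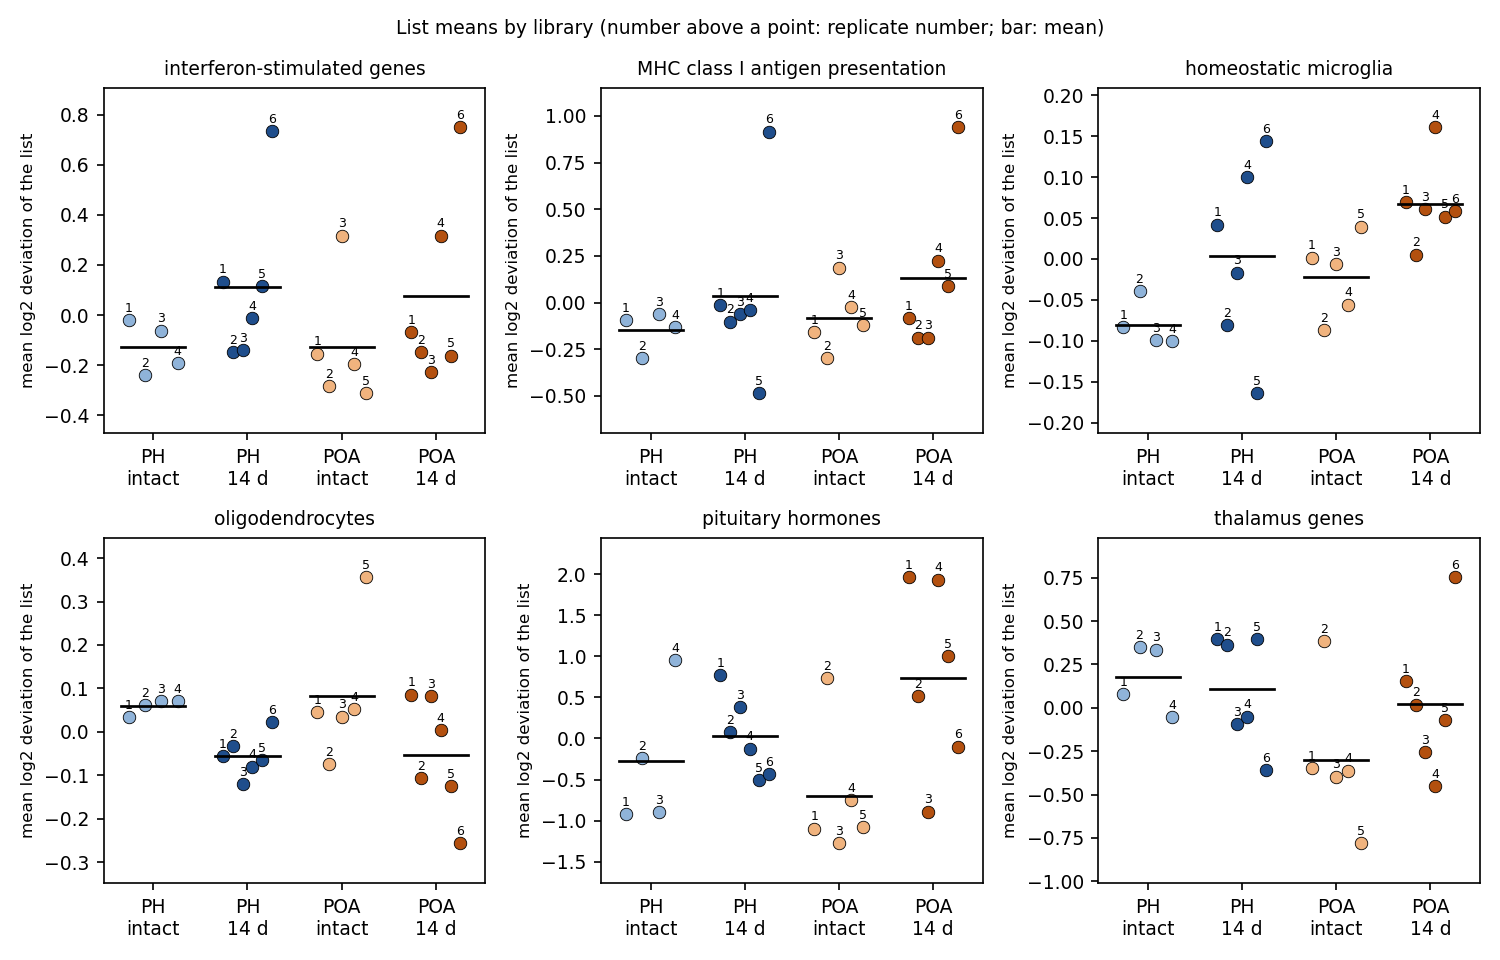
Mean log2 deviation of 6 gene lists in each library (vertical axis), from the average of the 21 libraries, by group. Numbers are replicate numbers and bars group means. Replicate 6 of the 14-day group is the highest library for interferon-stimulated and MHC class I genes in both regions (0.73 and 0.92 for the PH, 0.75 and 0.94 for the POA), and the pituitary and thalamus lists vary widely among POA libraries.

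Among the families described here, those of oligodendrocytes, glucocorticoid-induced genes and MAPK feedback had most members lower in both regions. Of all protein-coding genes, 30.2% were lower in both. Of 14 oligodendrocyte genes, 11 were lower in both regions and 0 higher in both, with medians of −0.11 and −0.13, and besides *Cldn11* and *Mog*, *Mal*, a protein of the myelin membrane, had log2 changes of −0.19 and −0.27. In the PH the list mean was 0.03 to 0.07 in intact libraries and −0.12 to 0.02 after OVX, without overlap, whereas in the POA the groups overlapped. In batch 1 alone the median in the POA was 0.03, of the opposite sign. There 3 of the 14 genes were lower in both, 2 were higher in both and 7 were lower in the PH and higher in the POA. In batch 2 alone 9 were lower in both and 5 were higher in the PH and lower in the POA. Of 20 glucocorticoid-induced genes, 15 were lower in both regions (medians −0.14 and −0.13). Besides *Sgk1*, they included the clock gene *Per1* (−0.19 and −0.35) and the transcription factor *Klf9* (−0.16 and −0.20). *Cyp2e1*, which is on this list, was higher in both regions. In batch 1 alone 10 of the 20 were lower in both, and in batch 2 alone 13. Of 13 MAPK feedback genes, 8 were lower in both (medians −0.06 and −0.10), among them *Spred3* and *Spry1* (−0.06 and −0.23). In batch 1 alone 6 of the 13 were lower in both, and in batch 2 alone 9.

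Immediate early genes, which neurons induce within minutes of activity, had a median of −0.01 in the PH and −0.20 in the POA. Of the 22 genes, 10 were lower in both and 7 were higher in the PH and lower in the POA. *Egr1* was at 2756, 2459, 4287 and 3816 in intact PH libraries and 2288 to 3715 (median 2750.1) after OVX. In the POA it was at 3720.2, 3219, 4609, 4690.2 and 4496, and then at 1847 to 3749 (median 2253), with 2 intact libraries inside the range of the 14-day group. The log2 changes were −0.17 and −0.71 and the difference was 0.54, with an unadjusted *P* of 0.0624. *Fosb* was at 0.22 and −0.45, a difference with an unadjusted *P* of 0.0280 and an adjusted *P* of 0.999. The batches differed for this family, for which the medians were 0.12 for the PH and −0.01 for the POA in batch 1, and −0.35 and −0.30 in batch 2.

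Chaperones and hemoglobin were mostly on the higher side in both regions. Of 27 heat shock and endoplasmic reticulum chaperone genes, 19 were higher in both, with medians of 0.09 and 0.02, but in batch 2 alone 6 were higher in both and 6 lower in both, against 25 and 0 in batch 1. *Hspa1b*, an inducible Hsp70, had log2 changes of 0.49 and 0.40. Of 11 hemoglobin and red cell genes, 8 were higher in both (medians 0.36 and 0.16). The list mean was −0.40 to −0.11 in intact PH libraries and −0.00 to 0.19 after OVX, without overlap. In the POA the groups overlapped widely, at −0.26 to 0.30 in intact libraries and −0.09 to 0.34 after OVX. The amount of blood left in the dissected tissue was not measured, and its part in these values was not tested.

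The 58 clustered protocadherin genes tested did not share 1 direction. In the PH, 10 had an unadjusted *P* under 0.05 on the higher side and 1 on the lower, beside 2.2% and 1.99% of all genes. In the POA these counts were 6 and 3, beside 2.1% and 2.34%. The medians were 0.07 in the PH and −0.01 in the POA, 24 genes were higher in both regions, and 6 had an unadjusted *P* under 0.05 for a difference with the PH on top, against 0 with the POA on top. *Pcdhb1* had log2 changes of 0.67 in the PH and 0.13 in the POA, a difference with an unadjusted *P* of 0.0134, whereas *Pcdhb6* had log2 changes of 0.34 and 0.28. Isoforms of the α and γ clusters share their constant exons, so reads from these exons may be split among genes. In batch 2 alone the medians were −0.02 and −0.03.

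**Figure D5:**
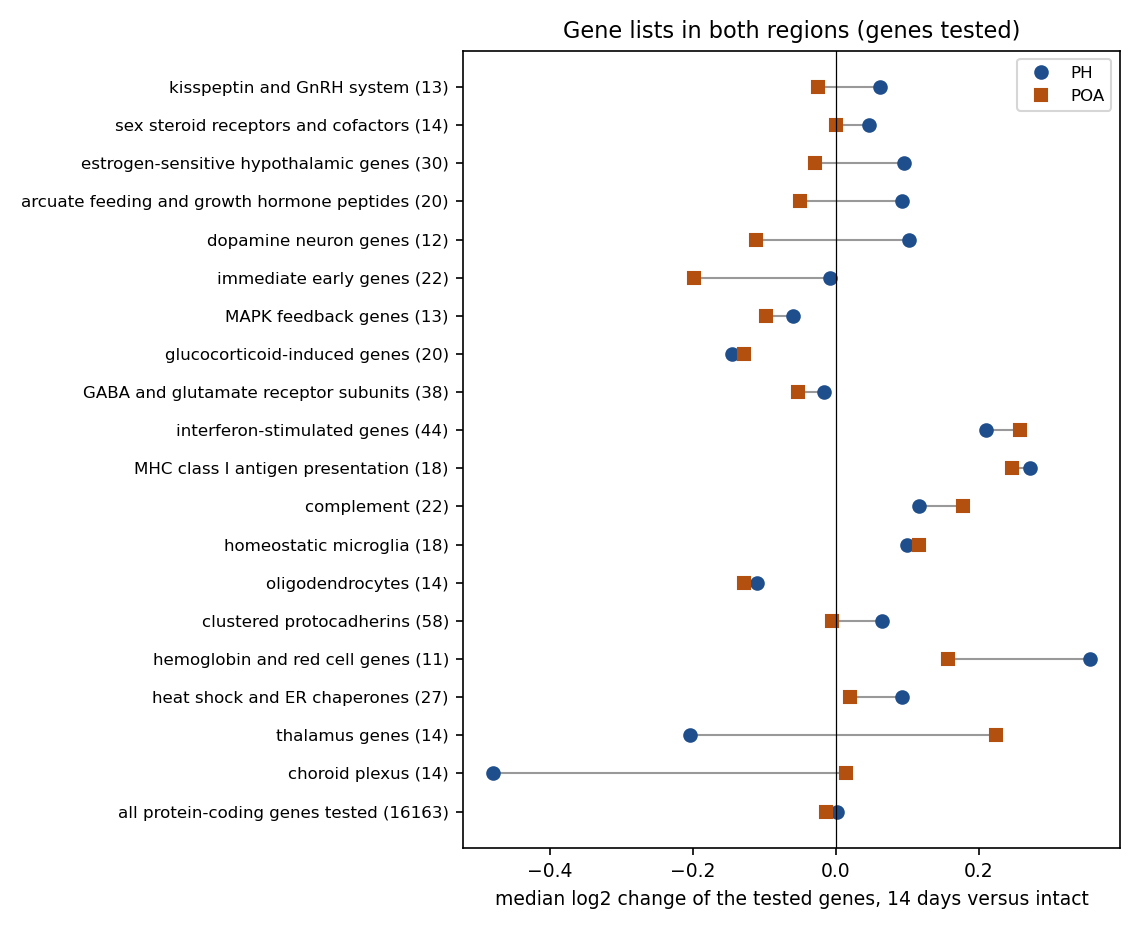
Median log2 change 14 days after OVX of the tested members of 19 gene lists and of all protein-coding genes, in the PH (circles) and the POA (squares), with the number of genes tested in parentheses. Interferon-stimulated, MHC class I, complement and homeostatic microglia genes lie to the right in both regions, oligodendrocyte and glucocorticoid-induced genes to the left in both, and thalamus genes on opposite sides (−0.20 and 0.22).

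The 38 GABA and glutamate receptor subunit genes had medians of −0.02 and −0.05, with 14 lower in both regions and 14 higher in the PH and lower in the POA. Marker genes of structures next to the dissected regions varied widely between single libraries. Of 14 thalamus genes, 11 were lower in the PH and higher in the POA, with medians of −0.20 and 0.22. Without 14-day replicate 6 of both regions 8 of the 14 were so (medians −0.14 and 0.11), in batch 1 alone 1 (0.02 and −0.03) and in batch 2 alone 8 (−0.17 and 0.44). *Tnnt1*, a troponin gene, was at −0.13 for the PH and 1.13 for the POA, where it ranged from 145 to 599 in intact libraries and from 321 to 1513 after OVX. The list mean in the POA ran from −0.78 to 0.38 in intact libraries and from −0.45 to 0.75 after OVX, with replicate 6 the highest. Of 7 tested pituitary hormone genes (of 10 listed), 4 were higher in both regions, and the medians were 0.09 in the PH and 1.72 in the POA. *Gh*, the growth hormone gene, was at 21.9, 290.3, 21.9, 37.2 and 26.5 in intact POA libraries and between 21.8 and 3634 (median 557) after OVX, and in the PH it was at 22.2, 59.4, 22.3 and 832 and then at 38.3 to 308. The groups overlapped in both regions. *Pomc*, which both pituitary and arcuate cells express, was at 0.45 for the PH and 2.26 for the POA, a difference of −1.81 with an unadjusted *P* of 0.0426 (adjusted *P* = 0.999). The choroid plexus list had medians of −0.48 in the PH and 0.01 in the POA, with list means from −1.31 to 1.62 in PH libraries. With 1 library left out its median ran from −0.78 (without PH intact replicate 2) to 0.19 (without PH intact replicate 1) for the PH, and from −0.40 (without POA 14-day replicate 6) to 0.52 (without POA intact replicate 1) for the POA. Without 14-day replicate 6 of both regions the medians were −0.69 and −0.40, and 12 of 14 genes were lower in both.

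Whether the dissection had a part in the other results was not tested, but the values were computed again with marker levels in the model. With the means of 4 pituitary and of 4 thalamus markers as covariates beside SV1, the difference of *Gm28040* was 2.42 (adjusted *P* = 8.85e-05), with 1.56 in the PH and −0.86 in the POA, 76 genes were alike, of which 24 were among the 45, and 7 were opposite, of which 4 were among the 6. The estrogen-sensitive genes that were higher in the PH and lower in the POA numbered 10 of 30 in this fit, the dopamine neuron genes 7 of 12 and the arcuate feeding and growth hormone genes 6 of 20, and 38 of 44 interferon-stimulated genes were higher in both.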

How the data were processed

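Bulk RNA was measured in PH and POA tissue that was dissected and flash-frozen, with poly(A) libraries that keep the strand. The submitters' processing notes name kallisto and DESeq2 and the build mm39, and the study describes surrogate variables as covariates. The deposited table holds 1 value per gene and library in a normalized signal that the authors made on a linear scale. It is not a table of counts (0.000219% of values are whole numbers), and unexpressed genes lie on a floor of 22.1. How the table was made from the counts is not given in the sources used here. Values of the floor genes followed 1 component, of which 83.5% lay between the regions. Library sums were 0.887 to 1.45 times their median, and since depth is unknown, no counting interval is given. The study's count models were not applied, because the unit does not allow them.

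Of 41565 named entries (1259 without a name were left out), those at 2 times the floor in at least 4 PH or 5 POA libraries were kept. The log2 values were fitted with limma 3.58.1 (R 4.3.3, statmod 1.5.0, trend and robust variance) on group means of all 33 libraries with 1 surrogate variable for each region, estimated in 5 rounds by a method rewritten in R. In the POA this variable separated the labeled batches (0.186 to 0.352 in batch 1 and −0.321 to −0.125 in batch 2). The PH variable mainly set 14-day replicate 5 apart (0.786, against −0.311 to 0.194 in the other PH libraries). The Benjamini-Hochberg adjustment covered the 22132 genes kept. Single genes were also tested by exact permutation, two-sided (Python 3.11.15, numpy 2.4.6, pandas 2.3.3; plots with matplotlib 3.10.9). The procedure was first checked on made-up input with known answers. Gene types and positions came from GENCODE M39, in which 972 named entries had no symbol, and promoters from RefSeq.

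Named genes were those called, the protein-coding genes with the smallest *P* for the difference or the mean change, those opposite in the regions, and members of the lists. The members and lists were chosen with earlier results of these data known. Alternatives changed the covariates, the filter, the pseudocount, the libraries and the pairing of replicates. A result that needs a withheld item is not reported here.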

Additional observations from a re-analysis of the deposited data

Results flagged for a closer look

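The difference between the regions in the change of *Gm28040* (2.73 on the log2 scale) was the only one that passed the adjusted threshold of its own test. Single libraries far from the rest of their group were also looked for, among 184 groups of named genes and gene lists. There were 15, and chance gives about 1 in 20 groups.

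In PH 14-day replicate 5, *Hipk4* was lowest at 518 (next 928), *Pcdhga6* lowest at 1002 (next 1529), *Esr1* lowest at 538 (next 861) and *Arl5b* highest at 2484 (next 1388). In 14-day replicate 6 the interferon-stimulated mean was highest in the PH (0.73, next 0.13), the MHC class I mean in the PH (0.92, next −0.01) and in the POA (0.94, next 0.22), and the complement mean in the POA (0.44, next 0.12), and *Esr1* was lowest in the POA (502, next 998).

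In POA intact replicate 2, *Xrra1* was highest at 118 (next 94.7), *Arl5b* at 1906 (next 1499) and the pituitary hormone mean at 0.73 (next −0.75). In POA intact replicate 3 the interferon-stimulated mean was highest at 0.32 (next −0.15). In POA 14-day libraries, *Pcdhga6* was lowest in replicate 3 at 1482 (next 1677) and *Greb1* highest in replicate 2 at 273 (next 149).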

How the results depend on the processing

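Across 116 results and 38 settings, 21 of which left out 1 library each, *Gm28040* kept its direction in every one: the difference was 2.60 to 2.90 with 1 library left out and 1.20 (log2(value + 100)) to 2.83 otherwise, and only batch 2 alone missed the threshold (2.83, adjusted *P* = 0.933, limma), where the number of called differences was 0 in place of 1. Settings by batch, with pituitary and thalamus covariates, or without 14-day replicate 6 of both regions were chosen after seeing the data. The PH call (1) became 0 with batch in place of SV1, no covariate, the floor component and batch, log2(value + 100), batch 1 alone, batch 2 alone, and without 14-day replicate 6 of both regions, and stayed 1 to 1 with 1 library left out. POA calls (0) became 1 with 1 SV1 over all 33 libraries and with only the 21 libraries, and were 0 to 2 with 1 library left out (2 without POA intact replicate 2, and 1 without POA 14-day replicate 3, PH 14-day replicate 4 or PH 14-day replicate 6). Calls for the mean change (0) became 1 with only the 21 libraries, and were 0 to 1 with 1 left out (1 without POA intact replicate 3).

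Genes alike (45) numbered 28 without a covariate, 72 with SV1 and batch, 72 with only the 21 libraries, 25 in batch 2 alone, 76 with pituitary and thalamus covariates, and 36 to 58 with 1 library left out. Genes opposite (6) numbered 13 with SV1 and batch, 10 with only the 21 libraries, 3 at 4 times the floor, 11 in batch 1 alone, and 3 (without POA 14-day replicate 6) to 11 (without POA 14-day replicate 4) with 1 left out. The cause was not tested. Differences close to 0 turned their sign: *Tacr3* (−0.15 in batch 1, −0.0116 with pituitary and thalamus covariates), *Esr1* (−0.00344 in batch 1), *Pgr* (−0.0616 in batch 1, −0.00150 without 14-day replicate 6 of both regions, −0.0115 to 0.11 with 1 library left out) and *Greb1* (0.0232 with batch, 0.0398 without a covariate, 0.0372 with SV1 and batch, 0.0347 with 1 SV1 over all 33, 0.0507 with the floor component and batch, 0.40 in batch 2, −0.19 to 0.18 with 1 left out).

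Same-numbered PH and POA libraries were also treated as pairs with a replicate block. Over 10 such pairs the deviations correlated at −0.0264 to 0.168, with 5 over 0.1, and 5 of 10 PH libraries correlated best with their own number, a hint from the data and not the design. With the block the difference of *Gm28040* was 2.73 (adjusted *P* = 5.72e-06), 45 genes were alike, of which 44 were among the 45, 5 were opposite, all among the 6, and the block changed no call. The difference of *Kiss1* was not run under the alternatives because it failed the filter; without a filter it was −0.35 (unadjusted *P* = 0.240). With *Kiss1* and *Gm28040* summed it was 2.53 (adjusted *P* = 0.000245). Values near the floor limit weak genes, whose folds are understated.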
